A study of Mus musculus with 12 samples.

Results

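Transcripts of 6 matrix metalloproteinase genes, Mmp2, Mmp9, Mmp12, Mmp13, Mmp14 and Mmp19, and of 3 genes of their tissue inhibitors, Timp1, Timp2 and Timp3, were read in primary mouse microglia, which are neonatal by the name of the deposited table. These 9 genes, of 46262 in the deposited table, were taken by symbol, and the TPM (a length-corrected level that sums to the same total in every library) of each gene's transcripts were summed. Microglia, the resident macrophages of the brain, came from mixed glial cultures of cerebellum or forebrain and were kept for 24 hours with IL-34 at 100 ng/ml or CSF-1 at 20 ng/ml, both ligands of the receptor Csf1r. The 4 groups were cerebellum with IL-34, cerebellum with CSF-1, forebrain with IL-34 and forebrain with CSF-1, each with 3 libraries from independent cultures, and all were of WT genotype. Every group received a ligand, so neither could be set against cells without one, and the ligand doses differ. One label, that of the extraction protocol, names human tissue, whereas the others are all mouse.

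Matrix metalloproteinases are zinc-dependent endopeptidases that are made as inactive proenzymes and, once their propeptide is removed, cleave collagens, elastin, laminins and many cell surface and secreted proteins. TIMP proteins bind the active site of the mature enzyme and block it. TIMP2 has a further role, since at the cell surface it bridges MMP14 and the MMP2 proenzyme and so takes part in the activation of MMP2. In the brain, microglia and other macrophages release several of these enzymes, and fibroblasts, astrocytes, vascular cells and neutrophils release them as well.

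In each library TPM summed to 1000000 and 11740 to 11904 genes reached 1 TPM; read depth is unknown. All 10 microglial markers were above 0 in every group, with summed levels of 7177 to 7699 TPM in cerebellum with IL-34, 7701 to 7856 TPM in cerebellum with CSF-1, 7435 to 7623 TPM in forebrain with IL-34 and 7348 to 7607 TPM in forebrain with CSF-1. Of these, P2ry12 and Tmem119, markers of microglia in the intact brain, were low, at 7.10 to 11.7 and 7.15 to 20.4 TPM. Tmem119 was higher in every cerebellar library, at 17.7 to 20.4 TPM against 7.15 to 9.91 TPM in forebrain. P2ry12 was lower in every cerebellar library, at 7.10 to 9.81 TPM against 9.93 to 11.7 TPM in forebrain. Markers of other cells were low but also differed by region. The 8 mesenchymal markers, all above 0 somewhere, summed to 4.73 to 5.19 and 6.26 to 7.83 TPM in cerebellum with IL-34 and CSF-1, against 11.8 to 17.7 and 11.5 to 19.0 TPM in forebrain with IL-34 and CSF-1. Acta2 and Tagln held most of these sums and were higher in every forebrain library. The other mesenchymal markers reached at most 1.26 TPM and overlapped between the cerebellar and forebrain libraries. The 8 astrocyte markers summed to 14.5 to 19.8 TPM in the 6 cerebellar libraries and to 28.9 to 31.7 TPM in the 6 forebrain libraries. Among them, Aldoc, Gja1 and Aqp4 were higher in every forebrain library, and Gfap, Aldh1l1, Slc1a2 and Slc1a3 overlapped between regions. S100b, at most 0.836 TPM, was higher in every cerebellar library. The 5 choroid plexus markers summed to 14.8 to 58.7 TPM in cerebellar libraries and 0.482 to 1.51 TPM in forebrain libraries. The 8 oligodendrocyte lineage markers summed to 72.1 to 97.2 TPM in cerebellar and 55.8 to 69.7 TPM in forebrain libraries, the 5 endothelial markers to 7.01 to 12.9 TPM in all libraries with Cldn5 at 0 throughout, and the 5 markers of border-associated macrophages to 36.8 to 161 TPM. Of 7 neutrophil markers, 4 were above 0 anywhere, their sum was at most 0.603 TPM, and S100a8, S100a9 and Elane were listed at 0 in all 12 libraries. Cerebellum IL-34 replicates 1 and 2 stood apart in another way. The length limit of a library was the length below which 1% of its transcripts with at least 5 TPM fell. It was 503 and 491 nt in these 2 libraries, against 580 to 669 nt in the other 10. Transcripts under 600 nt held 2.58 and 3.31% of the TPM in these 2 libraries, a larger share than in the other 10.

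The members covered a wide range of levels. TPM corrects for transcript length, so levels can be set side by side. Timp2 was the most abundant, with a mean of 247 TPM over the 12 libraries and rank 556 among the 12419 genes tested. Mmp12 followed with 166 TPM and rank 920, and Mmp14 with 111 TPM and rank 1520. Mmp13 averaged 21.6 TPM. The other 5 were low, with means of 5.80 TPM for Mmp19, 3.86 TPM for Mmp2, 3.08 TPM for Timp3, 2.60 TPM for Timp1 and 2.58 TPM for Mmp9. Mmp12 and Mmp14 together made up 87.3 to 90.6% of the summed TPM of the 6 metalloproteinases in every library, and Timp2 made up 96.9 to 98.7% of the summed TPM of the 3 inhibitors. All 9 members passed the filter of 1 TPM in at least 3 of the 12 libraries.

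**Figure D1:**
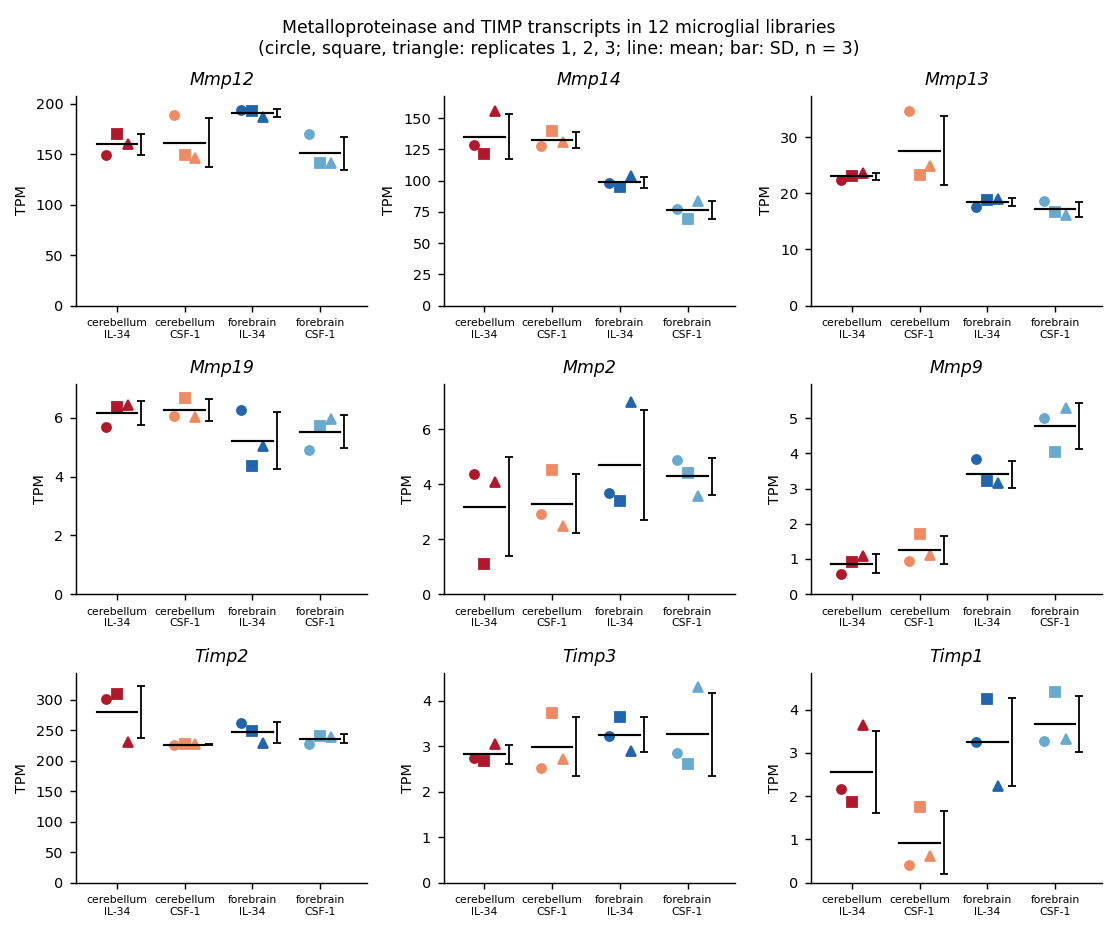
TPM of each of the 9 genes (vertical axis, linear, from 0) in the 12 libraries by group (horizontal axis), with circles, squares and triangles for replicates 1, 2 and 3, a line for the group mean and a bar for its SD (n = 3). All 6 forebrain libraries lie above all 6 cerebellar libraries for Mmp9 and below them for Mmp14 and Mmp13.

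Cerebellar microglia under CSF-1 had higher Mmp14 and Mmp13 and lower Mmp9 and Timp1 than forebrain microglia, and under IL-34 they had higher Mmp14 and lower Mmp9. These are limma's tests on log2(TPM + 1) over all 12419 genes, two-sided, called at a Benjamini-Hochberg adjusted p under 0.05. Between regions under CSF-1, 4 of the 9 members were called, where 6.71% of all genes tested were called; 2 were higher in cerebellum (3.29% of all genes) and 2 lower (3.42%). Between regions under IL-34, 2 of 9 were called, against 13.5% of all genes tested, with 1 higher in cerebellum (5.27% of all genes) and 1 lower (8.22%). No member was called between IL-34 and CSF-1 in cerebellum, where 12.8% of genes were called and 2 members had an unadjusted p under 0.05. In forebrain none was called either, with 1.2% of genes called and 3 members at an unadjusted p under 0.05. For the mean of both regions the count was also 0, with 13.4% of genes called and 4 members at an unadjusted p under 0.05. These shares moved with the processing. With the length limit of each library as a covariate, the 1593 genes called between ligands in cerebellum became 37, and the 149 in forebrain became 255. The 1675 genes called between regions under IL-34 became 126, and the members called there became 1. The 3 libraries of each group did not overlap for 6 of the 9 members between regions under CSF-1 (29.4% of all genes tested), for 4 between regions under IL-34 (32.9%), for 3 between ligands in forebrain (18.5%) and for 2 between ligands in cerebellum (36.2%). The median log2 fold change of the members was -0.06 between regions under CSF-1, -0.15 between regions under IL-34, 0.06 between ligands in forebrain and -0.02 between ligands in cerebellum, against 0.03, -0.02, -0.04 and -0.10 over all genes tested. The contrasts share groups and are therefore not independent of each other. The same 4 groups of bulk RNA cannot tell fewer cells that express a gene from less RNA of it per cell.

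**Figure D2:**
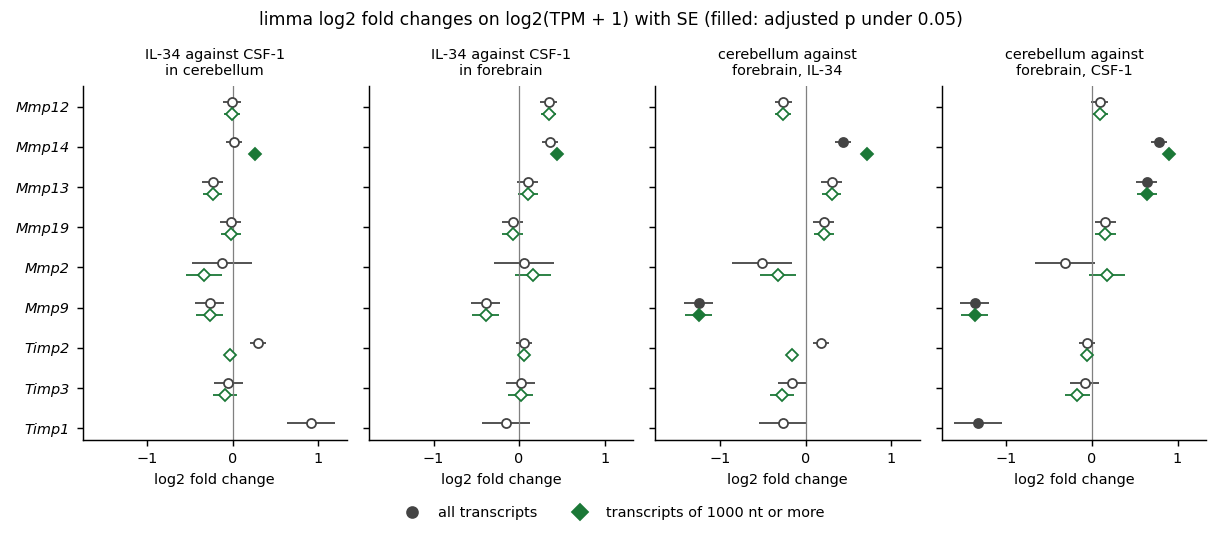
limma log2 fold changes on the log2(TPM + 1) scale (horizontal axis) with their SE for the 9 genes (vertical axis) in 4 comparisons, from all transcripts (grey circles) and from transcripts of 1000 nt or more only (green diamonds). Filled symbols have an adjusted p under 0.05; Mmp14 is filled in both region panels with all transcripts and in all 4 panels with long transcripts, and Timp1 has no long transcript.

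Mmp14 encodes the membrane-type enzyme MT1-MMP, a collagenase of the cell surface that also activates MMP2. The gene (ENSMUSG00000000957) lies on the plus strand of chromosome 14 from 54431612 to 54445364 in GRCm38. It had 128, 121 and 156 TPM in cerebellum with IL-34 and 128, 140 and 131 TPM in cerebellum with CSF-1, against 97.7, 94.6 and 104 TPM in forebrain with IL-34 and 77.4, 69.4 and 83.7 TPM in forebrain with CSF-1. Every cerebellar library lay above every forebrain library. The log2 fold change of cerebellum against forebrain was 0.78 (SE 0.09) under CSF-1, with limma's adjusted p at 0.000744, and 0.44 (SE 0.09) under IL-34, with an adjusted p of 0.0115. The 3 forebrain libraries with IL-34 also all lay above the 3 with CSF-1, but the difference of 0.36 on the log2 scale (SE 0.09) did not pass limma's threshold, with an adjusted p of 0.0989. In cerebellum the ligands differed by 0.02 (SE 0.09), less than the spread between libraries. The choroid plexus and oligodendrocyte marker sums were also higher in cerebellum, the second made up mostly of Mbp, with Olig1 in the opposite direction. The part of these cells in the region differences of Mmp14 and Mmp13 was not tested.

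This reading of the ligands in cerebellum depended on 1 short transcript. The 2596 nt coding transcript ENSMUST00000089688 held 78.7% of the mean Mmp14 TPM, and a 718 nt transcript annotated for nonsense-mediated decay, ENSMUST00000197874, held 20.8%. The long transcript alone had 124, 117 and 122 TPM in cerebellum with IL-34 against 93.2, 108 and 101 TPM in cerebellum with CSF-1, and 75.7, 69.7 and 74.5 TPM in forebrain with IL-34 against 54.2, 50.1 and 57.4 TPM in forebrain with CSF-1. Its 4 groups did not overlap and were ordered cerebellum with IL-34, cerebellum with CSF-1, forebrain with IL-34 and forebrain with CSF-1 from high to low. The short transcript had 3.51, 2.33 and 32.8 TPM in cerebellum with IL-34 and 34.4, 31.0 and 29.1 TPM in cerebellum with CSF-1, so it was low in cerebellum IL-34 replicates 1 and 2, the libraries with the lowest length limits. In the 6 forebrain libraries it ranged from 19.3 to 29.0 TPM. When only transcripts of 1000 nt or more were summed for every gene, Mmp14 was higher with IL-34 in cerebellum, with a log2 fold change of 0.26 and an adjusted p of 0.0148 by limma, and in forebrain, with 0.44 and 0.00239. The region differences were then 0.89 under CSF-1 (limma's adjusted p 7.97e-07) and 0.72 under IL-34 (6.58e-06). Without cerebellum IL-34 replicates 1 and 2, a setting chosen after seeing the data that leaves 1 library in that group, all Mmp14 transcripts gave 0.65 for region under IL-34 (limma's adjusted p 0.0188) and 0.23 for ligand in cerebellum (0.359). For the mean of both regions the ligand difference of Mmp14, from all transcripts, was 0.19 (limma's adjusted p 0.0822). With the length limit of each library as a covariate it was 0.27 (adjusted p 0.0497). Beyond these settings, the part of the length difference between libraries in the ligand result was not tested.

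**Figure D3:**
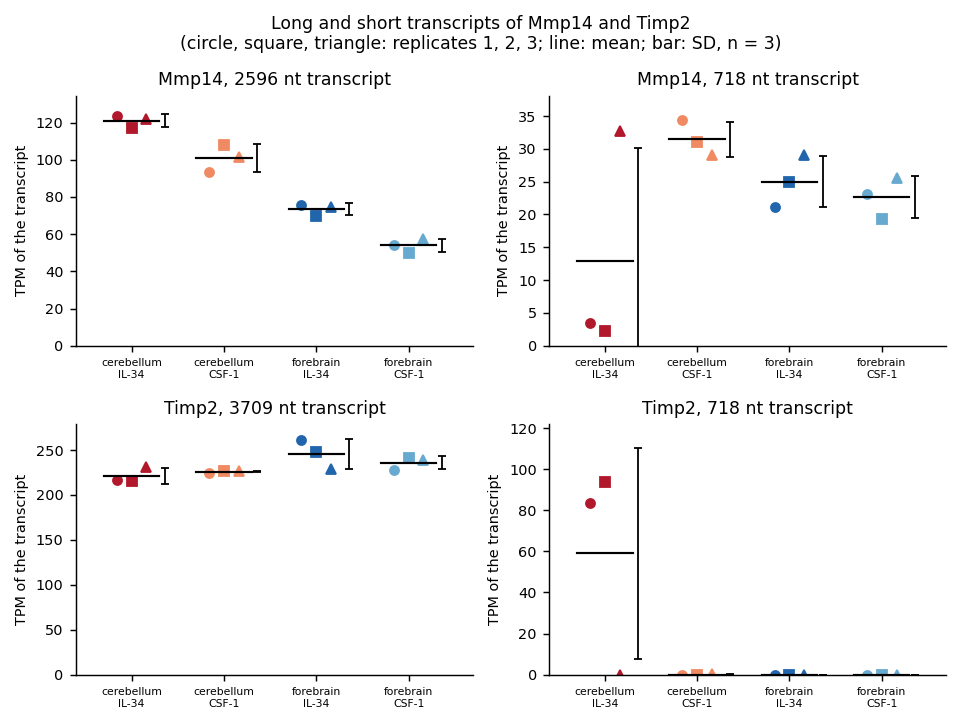
TPM of the long and short transcripts of Mmp14 and Timp2 (vertical axes, linear, from 0) in the 12 libraries by group, with circles, squares and triangles for replicates 1, 2 and 3, a line for the mean and a bar for its SD (n = 3; bars are clipped at 0). Cerebellum IL-34 replicates 1 and 2 have 3.51 and 2.33 TPM of the short Mmp14 transcript and 83.6 and 93.8 TPM of the short Timp2 transcript, which is at or below 0.0460 TPM in the other 10 libraries.

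Mmp13, a secreted collagenase, has 1 transcript in the table, of 2673 nt. The gene (ENSMUSG00000050578) lies on the plus strand of chromosome 9 from 7272514 to 7283331. It had 22.4, 23.1 and 23.7 TPM in cerebellum with IL-34 and 34.7, 23.3 and 24.9 TPM in cerebellum with CSF-1, against 17.7, 18.8 and 19.0 TPM in forebrain with IL-34 and 18.6, 16.6 and 16.2 TPM in forebrain with CSF-1. All cerebellar libraries lay above all forebrain libraries, and cerebellum CSF-1 replicate 1 was the highest. Cerebellum exceeded forebrain by 0.64 on the log2 scale under CSF-1 (SE 0.12, limma's adjusted p 0.011), and by 0.47 with an adjusted p of 0.0432 without cerebellum CSF-1 replicate 1. Under IL-34 the difference was 0.30 (SE 0.12) and did not pass, with an adjusted p of 0.127, although the groups did not overlap; without cerebellum CSF-1 replicate 1, which enters only the shared spread, it passed at 0.0226.

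Mmp12, the macrophage elastase, was the most abundant protease of the set with all its transcripts summed, and was called in no comparison. The gene (ENSMUSG00000049723) lies beside Mmp13 on chromosome 9, from 7344381 to 7369499 on the plus strand. It had 149, 170 and 160 TPM in cerebellum with IL-34 and 189, 149 and 146 TPM in cerebellum with CSF-1, against 194, 193 and 187 TPM in forebrain with IL-34 and 170, 142 and 142 TPM in forebrain with CSF-1. The forebrain libraries with IL-34 lay above those with CSF-1 and above the cerebellar ones with IL-34, without overlap. Neither difference was called by limma, at 0.34 (SE 0.10, adjusted p 0.137) for ligand in forebrain and -0.26 (SE 0.10, adjusted p 0.116) for region under IL-34. Without cerebellum CSF-1 replicate 1 the second passed, at an adjusted p of 0.0461 in limma. A 2060 nt transcript annotated for nonsense-mediated decay held 54.6% of the mean Mmp12 TPM and a 1452 nt coding transcript 35.8%. The Mmp12 coding transcripts of 1452, 3607 and 1185 nt averaged 59.4, 6.0 and 1.49 TPM over the libraries. The 2596 nt coding transcript of Mmp14 averaged 87.3 TPM. The ratio of Mmp12 to Mmp13 TPM was 6.94 ± 0.38 in cerebellum with IL-34 and 5.90 ± 0.47 in cerebellum with CSF-1, against 10.4 ± 0.58 in forebrain with IL-34 and 8.80 ± 0.31 in forebrain with CSF-1 (SD, n = 3 each).

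Mmp9, or gelatinase B, cleaves denatured collagen and basement membrane type IV collagen. The gene (ENSMUSG00000017737) lies on the plus strand of chromosome 2 from 164940780 to 164955850. It was low everywhere, with 0.572, 0.923 and 1.10 TPM in cerebellum with IL-34 and 0.935, 1.71 and 1.11 TPM in cerebellum with CSF-1, against 3.85, 3.21 and 3.17 TPM in forebrain with IL-34 and 5.01, 4.04 and 5.30 TPM in forebrain with CSF-1. No cerebellar library reached any forebrain library. The mean in cerebellum was 0.253 of the forebrain mean under IL-34 and 0.262 under CSF-1. On the log2(TPM + 1) scale, which understates changes at such levels, Mmp9 fell by 1.25 under IL-34 (SE 0.17, limma's adjusted p 0.00106) and by 1.37 under CSF-1 (SE 0.17, adjusted p 0.000873) in cerebellum relative to forebrain. Under IL-34 the call was lost with the length limit of each library as a covariate, at -1.07 and an adjusted p of 0.124, and without cerebellum IL-34 replicates 1 and 2, at -1.07 and 0.0559, both by limma. With IL-34 the forebrain libraries lay below those with CSF-1, at -0.39 with an adjusted p of 0.332 by limma. The 3175 nt coding transcript held 98.5% of Mmp9. Neutrophils are a known source of MMP9, and their markers were at or near 0, as given above. The mesenchymal and astrocyte marker sums were higher in forebrain, as Mmp9 was. Of the astrocyte markers S100b was lower in forebrain, and several genes of both lists overlapped between regions. The border-associated macrophage markers F13a1, Mrc1 and Cd163 were higher in forebrain as well, while Lyve1 and Pf4 overlapped between regions. The part of all these cells in the Mmp9 difference was not tested.

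Mmp2 and Mmp19 showed no called difference. Mmp2, gelatinase A, had 4.36, 1.11 and 4.09 TPM in cerebellum with IL-34 and 2.90, 4.50 and 2.48 TPM in cerebellum with CSF-1, against 3.69, 3.39 and 6.98 TPM in forebrain with IL-34 and 4.89, 4.42 and 3.55 TPM in forebrain with CSF-1. All 4 groups overlapped. Transcripts of 935 and 674 nt held 38.1 and 32.5% of its mean TPM, and the full-length 3078 nt transcript 26.2%, at 0.573 to 1.52 TPM. Mmp19, a basement membrane protease, stayed between 4.37 and 6.69 TPM in all libraries. Under CSF-1 its 3 cerebellar libraries, at 6.08, 6.69 and 6.04 TPM, lay just above the 3 forebrain ones, at 4.90, 5.72 and 5.96 TPM, and that difference was not called. It overlaps exons of Tmem198b on the opposite strand, which had 6.83 to 12.6 TPM, and because this chemistry does not mark strand their reads there cannot be told apart.

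Timp2 was the main inhibitor transcript and stayed within 215 to 262 TPM in all 12 libraries once its short transcript was set aside. The gene (ENSMUSG00000017466) lies on the minus strand of chromosome 11 from 118301069 to 118355740. All transcripts gave 300.2, 309 and 231 TPM in cerebellum with IL-34 and 225, 227 and 227 TPM in cerebellum with CSF-1, against 262, 248 and 228 TPM in forebrain with IL-34 and 227, 241 and 239 TPM in forebrain with CSF-1. The cerebellar libraries with IL-34 lay above those with CSF-1, 2 of them by a wide margin. The log2 difference of 0.30 (SE 0.09) had an adjusted p of 0.0614 in limma; without cerebellum IL-34 replicate 3 it was 0.43 with 0.00234, and without replicates 1 and 2 of that group it was 0.03 with 0.877. The 718 nt transcript ENSMUST00000155707 accounted for the excess, with 83.6 and 93.8 TPM in cerebellum IL-34 replicates 1 and 2 and at most 0.0460 TPM elsewhere. The 3709 nt transcript ENSMUST00000017610 had 217, 215 and 231 TPM in cerebellum with IL-34 and 225, 227 and 227 TPM in cerebellum with CSF-1, against 262, 248 and 228 TPM in forebrain with IL-34 and 227, 241 and 239 TPM in forebrain with CSF-1. Summed over transcripts of 1000 nt or more, the cerebellar ligand difference was -0.03 (SE 0.05, adjusted p 0.661 by limma), so its sign turned.

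Timp1, a secreted inhibitor of most metalloproteinases, was low and was called in 1 comparison. The gene (ENSMUSG00000001131) lies on the plus strand of the X chromosome from 20870166 to 20874735, within the span of Syn1 on the other strand but without a shared exon. It had 2.17, 1.85 and 3.64 TPM in cerebellum with IL-34 and 0.400, 1.75 and 0.616 TPM in cerebellum with CSF-1, against 3.26, 4.25 and 2.24 TPM in forebrain with IL-34 and 3.27, 4.41 and 3.32 TPM in forebrain with CSF-1. The cerebellar libraries with CSF-1 were the lowest 3 of the 12. Under CSF-1 Timp1 fell by 1.34 on the log2(TPM + 1) scale in cerebellum relative to forebrain (SE 0.28, limma's adjusted p 0.0166). The call was lost without cerebellum CSF-1 replicate 1 (-1.14, adjusted p 0.0629), without cerebellum CSF-1 replicate 3 (-1.24, 0.0551), without forebrain CSF-1 replicate 2 (-1.22, 0.0589) and with no filter on low values (-1.34, 0.0542), all by limma. Within cerebellum the 3 libraries with IL-34 lay above the 3 with CSF-1, at 0.92 (SE 0.28) with an adjusted p of 0.053 in limma; without cerebellum CSF-1 replicate 2 this was 1.21 with 0.0319. Both Timp1 transcripts, of 883 and 833 nt, are short, and either was listed at 0 in some libraries while the other was not, so the gene has no reading from long transcripts. The mesenchymal and astrocyte marker sums were higher in forebrain under both ligands, but the astrocyte marker S100b was lower and several genes of both lists overlapped. F13a1, Mrc1 and Cd163 of the border-associated macrophage markers were higher in forebrain as well, but not Lyve1 and Pf4. The part of all these cells in the Timp1 difference was not tested.

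Timp3, the inhibitor that binds to the extracellular matrix, had 2.73, 2.67 and 3.05 TPM in cerebellum with IL-34 and 2.52, 3.73 and 2.71 TPM in cerebellum with CSF-1, against 3.21, 3.65 and 2.90 TPM in forebrain with IL-34 and 2.86, 2.61 and 4.30 TPM in forebrain with CSF-1. All 4 groups overlapped, and no comparison of Timp3 was called. Its 4722 nt transcript held 95.3% of its TPM. Syn3, on the opposite strand with overlapping exons, had at most 0.290 TPM.

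The region by ligand interaction, the ligand difference in cerebellum minus that in forebrain, was called for none of the 9 members by limma, at log2 values of -0.35 to 1.07 and a smallest adjusted p of 0.341. It was called for 0.145% of all genes tested, and 3 members had an unadjusted p under 0.05. Timp1 had the highest value, 1.07 (SE 0.39, limma's adjusted p 0.341).

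The sums of inhibitor and protease transcripts were compared as a description of level, since TPM says nothing of protein or of enzyme activity. The 6 metalloproteinases summed to 328 ± 20.7 TPM in cerebellum with IL-34 and 333 ± 26.1 TPM in cerebellum with CSF-1, against 322 ± 4.0 TPM in forebrain with IL-34 and 260 ± 19.7 TPM in forebrain with CSF-1 (SD, n = 3 each). The 3 inhibitors summed to 286 ± 41.6 TPM in cerebellum with IL-34 and 230 ± 2.3 TPM in cerebellum with CSF-1, against 253 ± 17.6 TPM in forebrain with IL-34 and 243 ± 7.9 TPM in forebrain with CSF-1. The ratio of Timp2 to Mmp14, the pair that meets at the cell surface, was 2.12 ± 0.56 in cerebellum with IL-34 and 1.71 ± 0.07 in cerebellum with CSF-1, against 2.50 ± 0.26 in forebrain with IL-34 and 3.09 ± 0.33 in forebrain with CSF-1. Under CSF-1 the regions did not overlap in this ratio, and forebrain was higher. In cerebellum with IL-34 both the inhibitor sum and the ratio include the 718 nt Timp2 transcript of replicates 1 and 2. The 3709 nt Timp2 transcript alone averaged 221 ± 8.8 TPM in cerebellum with IL-34 and 226 ± 1.0 TPM in cerebellum with CSF-1, the opposite order. From the 3709 nt Timp2 and 2596 nt Mmp14 transcripts the ratio was 1.83 ± 0.07 in cerebellum with IL-34 and 2.25 ± 0.16 in cerebellum with CSF-1, against 3.36 ± 0.26 in forebrain with IL-34 and 4.39 ± 0.36 in forebrain with CSF-1 (SD, n = 3 each).

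Promoters are shown for 4 members whose values are compared above: the neighbours Mmp12 and Mmp13, and Mmp14 and Timp1, which under CSF-1 differed by region in opposite directions. Each is the 250 bases before an annotated start from RefSeq in GRCm38.p6, all on the plus strand, and entries were found for 6 of the 9 members. Capitals mark matches, on either strand, to the AP-1 motif TGANTCA, the GC box GGGCGG, the TATA box TATAAA and the PU box GAGGAA. The windows are chr9:7347124-7347373 for Mmp12, for which RefSeq has another start as well, chr9:7272264-7272513 for Mmp13, chr14:54431348-54431597 for Mmp14 and chrX:20869916-20870165 for Timp1.
Mmp12: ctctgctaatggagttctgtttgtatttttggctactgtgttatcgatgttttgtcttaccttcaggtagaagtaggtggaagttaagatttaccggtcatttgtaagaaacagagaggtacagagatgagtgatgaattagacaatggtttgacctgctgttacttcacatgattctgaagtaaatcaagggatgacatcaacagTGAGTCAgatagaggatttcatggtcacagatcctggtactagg
Mmp13: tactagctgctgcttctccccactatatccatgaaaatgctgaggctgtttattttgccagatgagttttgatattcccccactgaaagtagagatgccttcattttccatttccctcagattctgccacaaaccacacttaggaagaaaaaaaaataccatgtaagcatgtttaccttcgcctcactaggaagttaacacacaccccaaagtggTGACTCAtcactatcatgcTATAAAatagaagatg
Mmp14: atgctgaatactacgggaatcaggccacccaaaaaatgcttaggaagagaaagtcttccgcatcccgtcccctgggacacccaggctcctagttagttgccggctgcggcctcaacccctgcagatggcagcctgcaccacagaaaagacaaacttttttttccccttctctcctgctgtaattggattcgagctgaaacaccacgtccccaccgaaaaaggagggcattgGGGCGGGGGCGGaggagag
Timp1: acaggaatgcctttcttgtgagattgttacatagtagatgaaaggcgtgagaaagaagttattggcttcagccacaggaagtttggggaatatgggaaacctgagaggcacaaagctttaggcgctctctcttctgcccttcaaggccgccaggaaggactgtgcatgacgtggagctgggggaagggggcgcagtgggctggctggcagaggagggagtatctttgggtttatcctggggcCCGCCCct
The Mmp12 and Mmp13 windows shown each hold 1 AP-1 match, 44 to 38 bases before the start in Mmp12 and 35 to 29 in Mmp13, and that of Mmp13 also holds a TATA box 16 to 11 bases before the start. The window shown for Mmp12 lies inside the gene span given above. The window of its other start, chr9:7344147-7344396, which overlaps an annotated exon of Mmp12 and is not shown, holds no AP-1 match and 1 PU box, so the match depends on which start is taken. The Mmp14 window holds 2 GC boxes side by side and no match to the other motifs, and the Timp1 window 1 GC box on the minus strand. Among the 32851 RefSeq promoters of the same length, 6.75% held an AP-1 match, 32.7% a GC box, 12.4% a TATA box and 23.3% a PU box. A match describes the letters and not a bound site.

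Mmp13 and Mmp12 are the first genes of a metalloproteinase cluster on chromosome 9. Of its other genes, Mmp3, Mmp8, Mmp10 and Mmp27 passed the filter. Mmp8, a collagenase first described in neutrophils, lies from 7558456 to 7568485 and had 14.1, 15.7 and 16.1 TPM in cerebellum with IL-34 and 20.8, 13.5 and 13.1 TPM in cerebellum with CSF-1, against 14.3, 13.1 and 12.6 TPM in forebrain with IL-34 and 10.9, 7.60 and 9.28 TPM in forebrain with CSF-1. The regions did not overlap under CSF-1, at a log2 fold change of 0.70 (SE 0.16, limma's adjusted p 0.0291). That call was lost without cerebellum CSF-1 replicate 1 (0.50, 0.0669), without forebrain CSF-1 replicate 2 (0.58, 0.09), without forebrain CSF-1 replicate 3 (0.70, 0.0692), with no filter on low values (0.70, 0.0736) and without cerebellum IL-34 replicates 1 and 2 (0.70, 0.0603), all adjusted p-values from limma. Cerebellum CSF-1 replicate 1 was the highest cerebellar library for Mmp8, Mmp12 and Mmp13 alike.

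**Figure D4:**
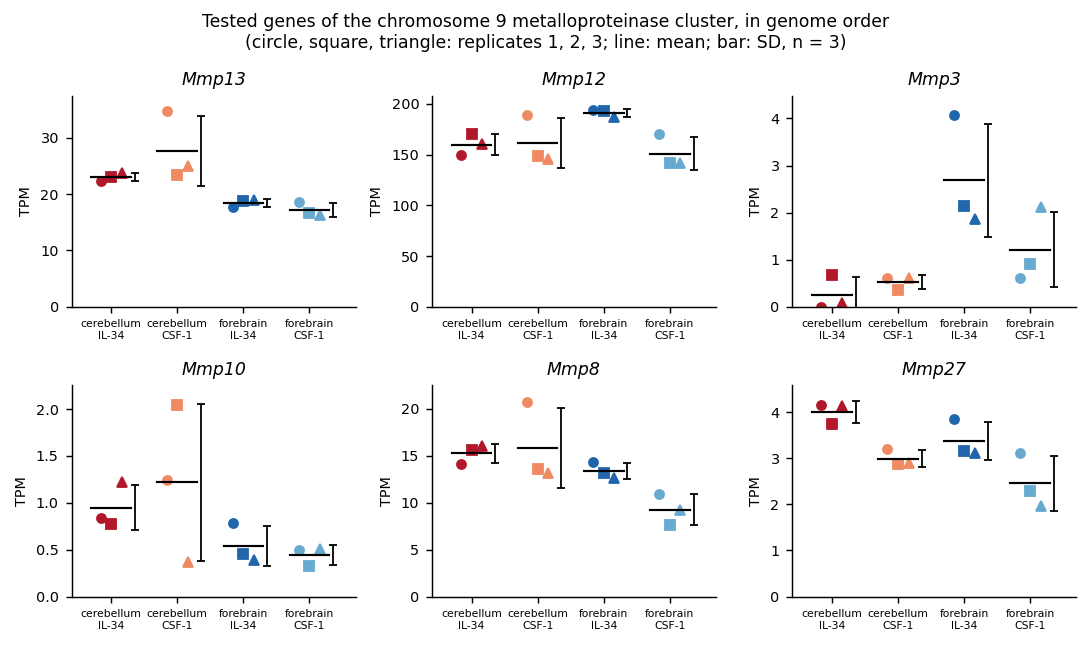
TPM of the 6 tested genes of the chromosome 9 cluster in genome order (vertical axes, linear, from 0) in the 12 libraries by group, with circles, squares and triangles for replicates 1, 2 and 3, a line for the mean and a bar for its SD (n = 3; bars are clipped at 0). Mmp13 and Mmp8 have their lowest mean in forebrain with CSF-1, and cerebellum CSF-1 replicate 1 is the highest library for both, at 34.7 and 20.8 TPM.

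Other genes of the system were read from lists. Of 18 other metalloproteinase and TIMP genes, 6 were tested, and 1 was called higher and none lower between regions under CSF-1, none higher and 1 lower between regions under IL-34, and none between ligands within either region. For the mean of both regions 1 was higher with IL-34 and none lower. This was Mmp27, at 3.73 to 4.16 TPM with IL-34 and 2.87 to 3.20 TPM with CSF-1 in cerebellum and 3.11 to 3.86 TPM with IL-34 and 1.97 to 3.12 TPM with CSF-1 in forebrain (0.34, limma's adjusted p 0.0417), which is under the level set for naming and was chosen after its values were seen. Its call held in 1 of the 12 fits that left out 1 library, the one without forebrain CSF-1 replicate 1, with adjusted p up to 0.0934 in the other 11. The 6 genes had median log2 fold changes of 0.09 and -0.10 between regions under CSF-1 and IL-34, and 0.32 and -0.07 between ligands in forebrain and cerebellum. Of 21 ADAM and ADAMTS proteases, 10 were tested, and with IL-34 none was higher and 2 were lower in each region, at medians of -0.01 in forebrain and -0.20 in cerebellum, and for the mean of both regions none was higher and 2 were lower. These were Adam8, with 1588 ± 72.1 TPM with IL-34 and 2248 ± 61.1 TPM with CSF-1 in cerebellum (SD, n = 3 each; limma log2 -0.50, adjusted p 0.00151), and Adam15, a membrane-anchored protease, with 268 ± 7.8 against 345 ± 21.4 TPM (-0.36, adjusted p 0.00524). Both were also lower with IL-34 in forebrain, at -0.33 (adjusted p 0.027) for Adam8 and -0.39 (0.00927) for Adam15 by limma, but the Adam8 call there was lost when any 1 of forebrain CSF-1 replicates 2 or 3 (0.108 and 0.104) or forebrain IL-34 replicates 2 or 3 (0.139 and 0.103) was left out, and that of Adam15 without forebrain IL-34 replicate 2 (0.0596). Adam10, the main alpha-secretase, was lower in cerebellum under IL-34, with 115 ± 8.0 TPM against 149 ± 10.5 TPM in forebrain (-0.37, adjusted p 0.007 by limma). The other gene of this list lower there was Adam17, the TNF-converting enzyme, at -0.18 (adjusted p 0.0274 by limma), a call lost without any 1 of cerebellum IL-34 replicates 1, 2 and 3 (0.0605, 0.0915 and 0.0503) or forebrain IL-34 replicate 1 (0.077). None was higher, and the median was -0.16, and under CSF-1 no gene of the list was called between regions, at a median of -0.05. With the length limit of each library as a covariate Adam10 was at -0.15 (limma's adjusted p 0.503) and Adam17 at -0.08 (0.647), and the cerebellar ligand calls were lost for Adam8 (0.0824) and Adam15 (0.14). Without cerebellum IL-34 replicates 1 and 2 the cerebellar calls were lost, at limma's adjusted p of 0.0505 for Adam8, 0.111 for Adam15 and 0.241 for Adam10, and that of Adam8 in forebrain as well, at 0.0537.

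Of 17 genes of metalloproteinase activation and control, 10 were tested, and with IL-34 none was higher, with 2 lower in forebrain (median -0.16) and 3 lower in cerebellum (median -0.17). Plau, the urokinase that activates plasminogen, had 6.45 ± 1.14 TPM with IL-34 and 13.9 ± 1.02 TPM with CSF-1 in cerebellum (SD, n = 3 each), a log2 fold change of -1.01 with an adjusted p of 0.000787 by limma. In forebrain it had 7.41 ± 0.34 TPM with IL-34 and 13.4 ± 0.70 TPM with CSF-1 (-0.77, limma's adjusted p 0.00927, 0.0551 without forebrain IL-34 replicate 2). Its receptor gene Plaur had 199 ± 16.3 TPM with IL-34 and 317 ± 19.3 TPM with CSF-1 in forebrain (-0.67, adjusted p 0.00623 by limma). In cerebellum it had 205 ± 9.3 TPM with IL-34 and 259 ± 22.8 TPM with CSF-1 (-0.34, limma's adjusted p 0.023), a call that held in 11 of 19 alternatives. It was lost with median-of-ratios scaling (-0.23, 0.156), no filter on low values (0.0558), the length limit as a covariate (0.0824), without cerebellum CSF-1 replicate 2 (0.0722) or 3 (0.0632), without cerebellum IL-34 replicate 1 (0.0707) or 2 (0.0584), and without both of these IL-34 libraries (0.26). For the mean of both regions 1 gene of the list was higher with IL-34 and 3 were lower. The higher one was Ctsk, the collagen-degrading cathepsin K, at 0.44 (limma's adjusted p 0.0309). That call was lost without any 1 of cerebellum IL-34 replicates 1 and 3, cerebellum CSF-1 replicates 1 and 3, forebrain IL-34 replicates 2 and 3 and forebrain CSF-1 replicates 2 and 3 (adjusted p up to 0.0717), with no filter (0.0786), with the covariate (0.0622) and with the replicate block (0.0528). Between regions, none was higher and 1 lower under CSF-1 (median 0.11), and 2 were higher and 1 lower under IL-34 (median -0.05). The lower gene was Ctsk under both, with 3.48 ± 1.01 TPM in cerebellum and 15.7 ± 0.17 TPM in forebrain under IL-34 (-1.92, adjusted p 3.83e-05) and 2.48 ± 0.41 against 10.6 ± 1.32 TPM under CSF-1 (-1.74, adjusted p 0.000113, both limma). Serpine2, a secreted inhibitor of serine proteases, was higher in cerebellum under IL-34 by 0.73 (adjusted p 0.000713), and with transcripts of 1000 nt or more by 0.20 (0.121, both limma).

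Of 21 matrix substrates, 12 were tested; 1 fell with IL-34 in forebrain (median -0.11) and 2 in cerebellum (median -0.19), and none rose within a region. For the mean of both regions 1 rose with IL-34 and 3 fell. Nid2, a basement membrane protein, fell in both, with 6.51 ± 0.81 TPM with IL-34 and 12.2 ± 0.57 TPM with CSF-1 in cerebellum and 7.52 ± 0.46 TPM with IL-34 and 13.7 ± 1.01 TPM with CSF-1 in forebrain (SD, n = 3 each; limma log2 -0.82 and -0.78, adjusted p 0.00138 and 0.00623). Between regions, 2 were higher and 1 lower under CSF-1 (median -0.08), and 2 were higher and 2 lower under IL-34 (median -0.01). Ecm1, a secreted matrix protein, had 75.2 ± 9.5 TPM in cerebellum and 159 ± 8.8 TPM in forebrain under IL-34, and 64.1 ± 4.1 TPM in cerebellum and 148 ± 2.9 TPM in forebrain under CSF-1 (-1.08 and -1.19, adjusted p 2.41e-05 and 2.23e-05 by limma). Thbs1, thrombospondin 1, had 50.9 ± 2.1 TPM in cerebellum and 32.3 ± 2.9 TPM in forebrain under IL-34, and 40.5 ± 3.8 TPM in cerebellum and 23.1 ± 2.7 TPM in forebrain under CSF-1 (0.64 and 0.79, adjusted p 0.0024 and 0.00102 by limma). It was also the one that rose with IL-34 for the mean of both regions, by 0.40 (limma's adjusted p 0.00603), with no overlap between ligands in either region and adjusted p-values of 0.0559 in cerebellum and 0.0541 in forebrain. Spp1, the secreted phosphoprotein osteopontin, had 24369 ± 2141 TPM in cerebellum and 16870 ± 168 TPM in forebrain under IL-34, and 26751 ± 488 TPM in cerebellum and 19323 ± 1566 TPM in forebrain under CSF-1 (0.53 and 0.47, adjusted p 0.000886 and 0.00231, and 0.0774 and 0.149 with no filter on low values, all by limma). Without cerebellum IL-34 replicates 1 and 2, limma's adjusted p was 0.0725 for Nid2 between ligands in cerebellum 0.0607 for Thbs1 between regions under IL-34 and 0.0504 for Thbs1 between ligands over both regions. With the length limit as a covariate it was 0.0824 for Nid2 between ligands in cerebellum and 0.054 for Spp1 between regions under IL-34.

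Genes whose levels ran most like each member over the 12 libraries were found by Pearson's r of log2(TPM + 1), as a description, since the libraries share their groups. Mmp9 ran most like Adgre5 (r = 0.984), Folr2 (0.976) and Akr1b8 (0.967). Mmp14 ran most like Tbc1d8 (0.938), Trib3 (0.932) and Dkk2 (0.929), Mmp13 like Spint1 (0.922), Mmp12 like Arl13b (0.904) and Timp1 like Abcg1 (0.867). Timp2 ran most like Fam234a (0.944) and Minos1 (0.937), and Minos1 had 31.0 and 34.1 TPM in cerebellum IL-34 replicates 1 and 2 against 10.8 to 15.6 TPM in the other 10 libraries. Among the members, Mmp13 and Mmp14 had r = 0.755, and Mmp9 and Mmp14 had r = -0.866.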

How the data were processed

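RNA was sequenced from 12 libraries of mouse microglia, and the authors deposited TPM per Ensembl transcript, made with kallisto 0.43.0 and GRCm38 per the submitters' processing notes. The sources used here do not give the annotation release. The kit was SMART-Seq v4, per the labels' protocols, a chemistry that primes on poly(A) and marks no strand. TPM holds no depth, so no counting interval is given. TPM was summed per gene, and limma 3.58.1 in R 4.3.3 was run on log2(TPM + 1) with 4 group means, a variance trend and 8 residual degrees of freedom, over the 12419 genes that reached 1 TPM in 3 or more libraries, with Benjamini-Hochberg adjustment and two-sided tests. The code was tested on simulated data. Lengths and positions come from GENCODE M21, which held 98.6% of the 115879 transcripts.

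The members and gene lists were chosen with earlier results of these data known. Of each list up to 4 genes are named, those with the smallest p among called genes with a group mean of at least 5 TPM. For each member the 3 genes with the highest r were found, and only some of these are named. Alternatives covered the pseudocount (0.1), the filter, median-of-ratios scaling, the replicate number as a block, transcripts of 1000 nt or more, each library's length limit as a covariate and leaving out each library. Leaving out cerebellum IL-34 replicates 1 and 2 together was chosen after seeing the data.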

Additional observations from a re-analysis of the deposited data

How the results depend on the processing

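Across all genes, the counts of calls by limma moved by over 1.5 times under several settings. For IL-34 against CSF-1 in forebrain the 149 calls became 87 with no filter on low values, 249 with median-of-ratios scaling, 83 with the replicate block, 431 with transcripts of 1000 nt or more, 255 with the length limit as a covariate and 95 without cerebellum IL-34 replicates 1 and 2. In cerebellum the 1593 calls became 830 with no filter, 986 with the block, 2570 with long transcripts, 37 with the covariate and 67 without the 2 libraries. For the mean of both regions the 1667 calls became 1106 with no filter, 2725 with long transcripts, 622 with the covariate and 397 without the 2 libraries. The 18 interaction calls became 1 with long transcripts and 10 with the covariate. Between regions, the 833 calls under CSF-1 became 1450 with long transcripts, and the 1675 under IL-34 became 126 with the covariate and 250 without the 2 libraries. Leaving out those libraries reduces a group to 1 sample, whose spread is then assumed to be that of the others. Members called were, in forebrain between ligands, 1 with median-of-ratios scaling and 1 with long transcripts (Mmp14), and in cerebellum 1 with a pseudocount of 0.1 (Timp1), 2 with median-of-ratios scaling (Timp1 and Timp2) and 1 with long transcripts (Mmp14). For the mean of both regions they were 2 with median-of-ratios scaling, 2 with long transcripts, 1 with the covariate and 1 without the 2 libraries. Between regions under IL-34 they were 1 with the covariate and 1 without the 2 libraries (Mmp14). Other than where the construction of a setting shows it, the cause was not tested. Leaving out 1 library at a time gave 29 to 163 calls between ligands in forebrain, 299 to 1769 in cerebellum, 925 to 2081 for the mean, 12 to 132 for the interaction, 413 to 918 between regions under CSF-1 and 838 to 1772 under IL-34. Members called then numbered 0 to 0, 0 to 1, 0 to 1, 0 to 0, 3 to 4 and 2 to 4 in the same order. The sign turned for Timp2 between ligands in cerebellum with long transcripts (-0.034) and for Timp1 between regions under IL-34 without the 2 libraries (0.15). Leaving out 1 library moved Mmp14 between ligands in cerebellum over -0.086 to 0.092 and Timp1 between ligands in forebrain over -0.32 to 0.028. The calls of Mmp14 and Mmp13 between regions under CSF-1, of Mmp9 under CSF-1 and of Mmp14 under IL-34 held in all 19 alternatives. Of the results on genes of the other lists, 10 lost their call with the length limit as a covariate: Adam8, Adam15, Plaur and Nid2 between ligands in cerebellum, Ctsk and Mmp27 for the mean, and Adam10, Adam17, Spp1 and Serpine2 between regions under IL-34. Same-numbered libraries did not deviate together (r from -0.454 to 0.458 in 18 pairs, and 1 of 12 libraries correlated best with its own number). Differently numbered libraries reached r = 0.569, so this check cannot tell whether same-numbered libraries share more than a number. The replicate block changed no member's call. It ended those of Adam8 between ligands in forebrain (adjusted p 0.0705 by limma) and Ctsk for the mean of both regions (0.0528).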
